A study of Rattus norvegicus with 30 samples.

Results

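Lung RNA was compared between 6 h and 24 h after abdominal surgery in rats that were not given taurocholate. The members are the 12 libraries of the 30 in the series that the labels name Sham or Con, and no measured value entered that rule. There were 3 Sham rats and 3 Con rats at 6 h, and 3 Sham rats and 3 Con rats at 24 h, each library being the lung of 1 rat. The animals were male Sprague Dawley rats aged 8 weeks, fasted for 12 h and anaesthetised with pentobarbital. In Sham rats the pancreas was only turned slightly, whereas in Con rats sterile saline was infused into the biliopancreatic duct. The authors describe a mild pancreatitis in Con rats and therefore took Sham rats as their control, which limits Con rats as a model of surgery alone. Both received the vehicles of the drug arms, which were saline into a vein and 0.5% carboxymethylcellulose sodium into the stomach, given 2 h and 12 h after the operation. The 24 h rats had therefore been dosed at both times and the 6 h rats only at the first. The other 18 libraries were from rats infused with sodium taurocholate, which causes severe acute pancreatitis, and left untreated (SAP) or treated with dexamethasone (DEX) or emodin (Emo). The question asked of the controls was how much of the lung transcriptome differs with the time elapsed since surgery alone. The hour of the day at which the rats were operated on is not given in the sources used here, so time since surgery, number of vehicle doses and time of day cannot be told apart.

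The lung is made up of alveolar epithelium, airway epithelium, a dense capillary bed, connective tissue and resident and passing blood cells. Surgery, anaesthesia and fasting are known to set off stress hormones, an acute phase response and shifts in circulating leukocytes that fade over hours to days. Lung cells also keep a circadian clock, in which Clock and Arntl (also called Bmal1) switch on the Per, Cry, Nr1d and Dbp genes, whose products in turn feed back on the clock. In bulk tissue a lower level of a marker can come from fewer cells of that type or from less RNA per cell, which cannot be told apart.

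Libraries held 23100017 to 29520769 reads assigned to genes, and the scaling factors of the trimmed mean of M values (TMM) lay between 0.951 and 1.056. Mitochondrial transcripts took 3.32% to 5.28% of the reads. Short structural RNAs took 31.3 to 989 CPM (counts scaled to library depth), the highest being Con-6h rat 1 and the next Sham-6h rat 3 at 189. The markers of lung epithelium were abundant in all libraries, with Sftpc, the alveolar type 2 surfactant protein C, at 17539 to 29931 FPKM (fragments scaled by transcript length and library depth) and Scgb1a1, the club cell secretoglobin, at 16320 to 41619 FPKM.

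Of 22914 genes, 15293 were expressed well enough to be tested, with the operation type as a covariate. With edgeR's quasi-likelihood test no gene met both an adjusted p below 0.05 and a 2-fold difference (0% called), and the smallest adjusted p was 0.0752. At an unadjusted p under 0.05, 1323 genes were higher at 24 h (8.65% of those tested) and 1349 were lower (8.82%), with similar numbers in each direction. Among these, 105 higher and 217 lower genes differed by at least 2-fold. The FPKM of the 6 rats at 24 h lay above that of all 6 rats at 6 h in 42 genes (0.275%) and below in 113 genes (0.739%). The median log2 fold change (24 h over 6 h) of all genes tested was 0.01.

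How many genes were called varied with the tool and the libraries. DESeq2 on the same 12 libraries called 25 genes higher and 136 lower. A model that took its error from all 30 libraries called 17 higher and 110 lower. With Sham-6h rat 2 left out, edgeR called 5 higher and 65 lower. With Con-24h rat 3 left out it called 1 gene, Nox4. Below, genes of the pooled comparison are therefore called higher or lower at 24 h where the unadjusted p of edgeR was under 0.05, and their adjusted p is printed, which passed the threshold for none of them. The value 0.0763 recurs because the Benjamini-Hochberg step gives neighbouring genes a common adjusted p.

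Time did not separate the rats along the first principal component. This component held 19.7% of the variance, and its mean score differed between times by 13.7 units (p = 0.445, exact permutation test of the time labels within operation type, two-sided, 400 assignments, smallest possible p 0.005). The second held 18.5% and separated the times with p = 0.035 in the same exact permutation test, and this varied with single libraries. Without Sham-6h rat 3 the difference was 34.4 units on the first (p = 0.06) and 0.56 on the second (p = 0.76), and without Con-24h rat 1 the second had p = 0.005 (exact permutation tests). Without Sham-6h rat 2 the difference on the first component was 34.0 units and its p was 0.035 (exact permutation test).

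Genes were also read by 36 lists, 17 of responses and 19 of cell type markers. The list furthest from the background was cell proliferation, of which 25 of 29 genes tested (86.2%) were lower and none higher, against 8.82% of all genes. By share, next came ciliated cells with 6 of 11 higher, hypoxia and glycolysis with 8 of 19 lower, alveolar type 2 cells with 4 of 10 higher, cholesterol synthesis and uptake with 8 of 21 higher, alveolar type 1 cells with 3 of 8 higher, and core clock genes with 6 of 19 higher and 3 lower.

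**Figure D1:**
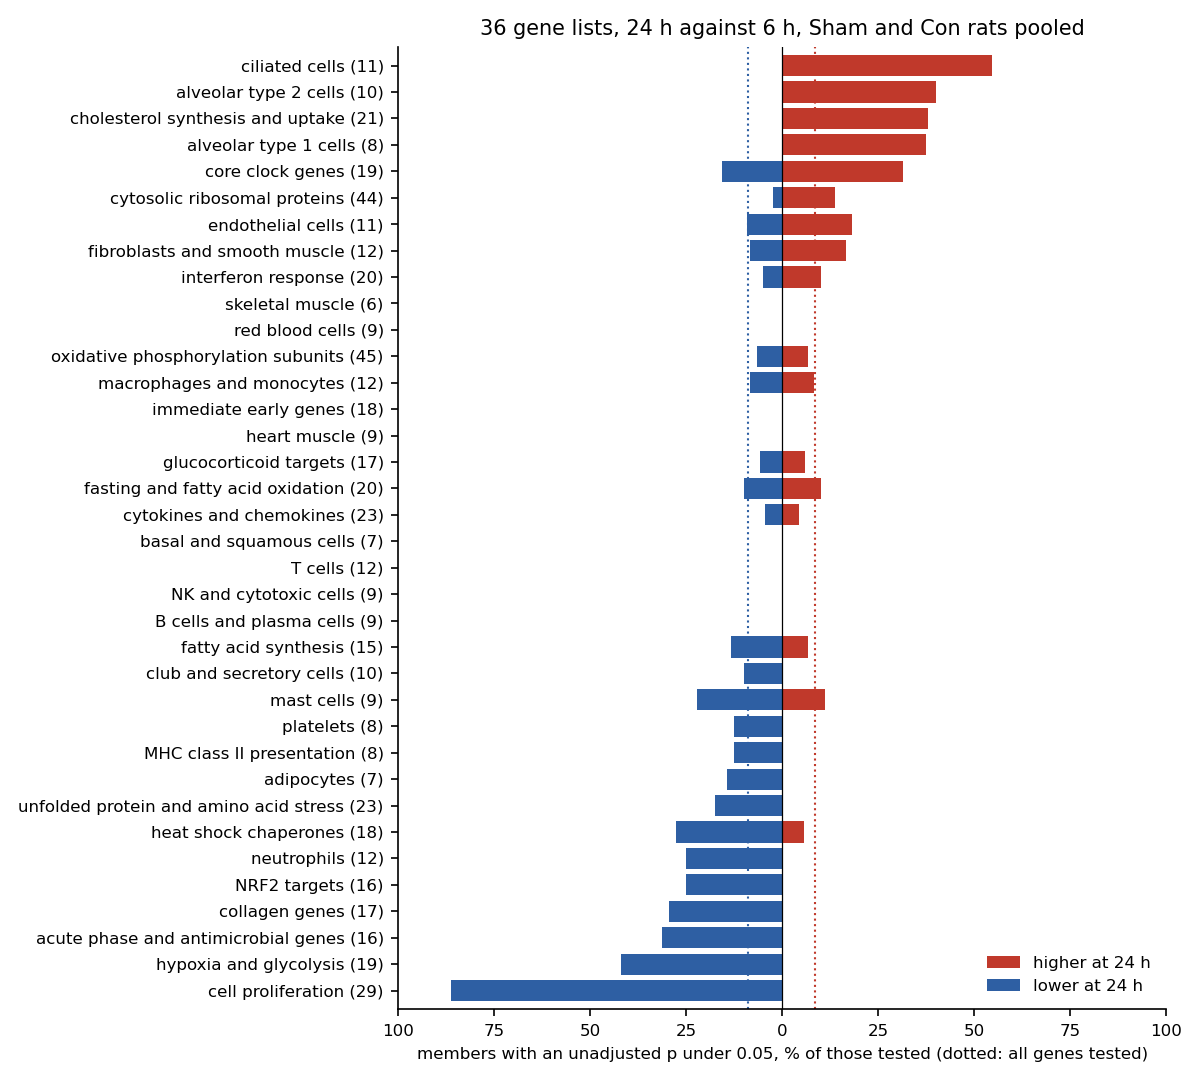
Share of each list's tested genes with an unadjusted p under 0.05 (percent, horizontal axis), higher at 24 h to the right and lower to the left, for 36 lists (vertical axis). The dotted lines mark all genes tested, 8.65% higher and 8.82% lower. Cell proliferation stands out on the lower side with 86.2%.

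Most genes of dividing cells were lower at 24 h in the pooled comparison. These genes are switched on in waves, with those for DNA synthesis in S phase and those for chromosome segregation in G2 and mitosis. The median log2 fold change of the 29 genes tested was -1.41 pooled, -1.18 in Sham rats and -1.77 in Con rats, against 0.01 for all genes tested. Between 24 and 27 members were lower at an unadjusted p under 0.05 with each single library left out and in every other fit tried. The summed level of the list was 117 to 254 FPKM at 6 h and 94.4 to 128 FPKM at 24 h, with Sham-6h rat 2 at the 24 h level. Red blood cell markers had a median of -1.0 in the same comparison and all 9 were below 0, with sums of 972 to 9396 FPKM at 6 h and 662 to 4876 FPKM at 24 h, and their part in the result was not tested. Calls among the proliferation genes ranged from 0 in the main fit to 20 of 29 with DESeq2, 19 with 30 libraries in the model and 18 without Sham-6h rat 2.

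The promoters of a pair of mitotic genes of the list are shown because members of the list were lower together. In each, capitals mark the sequences searched on both strands: CCAAT, the CCAAT box, and TTTGAA or TTTAAA, the core of the cell cycle homology region found in promoters of mitotic genes. They are RefSeq sequences of the GRCr8 assembly, 300 bases each, from 250 before to 50 after the start of the gene, Plk1 at chr1:186147408-186147707 on the plus strand and Ccnb1 at chr2:33655176-33655475 on the minus strand.
Plk1: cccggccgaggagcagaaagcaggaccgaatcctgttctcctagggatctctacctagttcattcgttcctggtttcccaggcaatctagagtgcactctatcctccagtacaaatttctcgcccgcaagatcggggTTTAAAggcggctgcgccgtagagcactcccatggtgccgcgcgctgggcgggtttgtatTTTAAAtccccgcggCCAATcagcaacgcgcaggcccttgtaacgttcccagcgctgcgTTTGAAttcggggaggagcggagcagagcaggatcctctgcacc
Ccnb1: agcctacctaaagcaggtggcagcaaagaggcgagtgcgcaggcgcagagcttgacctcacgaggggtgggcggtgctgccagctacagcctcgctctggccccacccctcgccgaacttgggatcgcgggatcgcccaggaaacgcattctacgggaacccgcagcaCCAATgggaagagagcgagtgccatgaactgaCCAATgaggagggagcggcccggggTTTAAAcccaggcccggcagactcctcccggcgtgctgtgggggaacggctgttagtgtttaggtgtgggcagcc

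Of the 29 genes, 22 had a promoter in the table. The cell cycle homology core was present in 17 of these 22 windows (77.3%), against 28.3% of all 33469 windows, and CCAAT was likewise present in 17 (77.3%), against 37.5%. Both motifs were chosen after the expression values were seen. A match is only a description of letters in the window.

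Among the mitotic kinases and cyclins, Plk1, the polo-like kinase that drives mitotic entry, stood at 5.79 ± 2.63 FPKM at 6 h and 1.74 ± 0.499 at 24 h (SD, n = 6 each), a log2 fold change of -1.69 ± 0.323 (SE, adjusted p = 0.0763 with edgeR). Cdk1, the kinase that triggers mitosis, measured 14.7 ± 8.25 and 5.46 ± 2.04 FPKM (log2 -1.41, adjusted p = 0.111). Its cyclin partner Ccnb1 measured 4.96 ± 1.99 and 2.00 ± 0.768 FPKM (log2 -1.30, adjusted p = 0.0939). The 6 h rats varied more among themselves than the 24 h rats for each of these 3 genes. Ccna2, the S and G2 phase cyclin, was at 1.27 to 3.94 FPKM at 6 h and 0.31 to 1.23 FPKM at 24 h, so that the groups did not overlap (log2 -1.89 ± 0.364, adjusted p = 0.0763). Ccna2 and Rrm2 were the only members of the list without overlap.

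Mki67, the antigen of cycling cells, was at 3.80, 1.04 and 1.43 FPKM in the 3 Sham rats at 6 h and 2.18, 2.33 and 3.53 in the 3 Con rats at 6 h. At 24 h it was at 1.05, 0.89 and 0.52 FPKM in Sham rats and 0.89, 0.57 and 0.36 in Con rats. All 24 h values but that of Sham rat 1 lay below every 6 h value, and the log2 fold change was -1.71 ± 0.349 (adjusted p = 0.0763). Top2a, which untangles DNA in dividing cells, measured 4.62 ± 2.60 and 1.28 ± 0.651 FPKM (log2 -1.85, adjusted p = 0.0897). Birc5 (survivin) was at 8.78 ± 4.17 and 2.56 ± 1.36 FPKM (log2 -1.74, adjusted p = 0.0897) and Cdc20, the activator of the anaphase-promoting complex, at 12.5 ± 6.24 and 4.07 ± 1.52 FPKM (log2 -1.59, adjusted p = 0.0928). Sham-6h rat 2 was the lowest of the 6 h rats for Mki67, Top2a (1.44 FPKM), Cdk1 (4.36) and Birc5 (2.79).

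The largest differences of the list, picked out after the values were seen, belonged to late mitosis. Kif20a, a kinesin of cytokinesis, stood at 4.72 ± 2.52 FPKM at 6 h and 0.977 ± 0.572 at 24 h (log2 -2.29, adjusted p = 0.0763). Ube2c, the ubiquitin-conjugating enzyme that works with the anaphase-promoting complex, measured 5.41 ± 2.72 and 1.21 ± 0.594 FPKM (log2 -2.13, adjusted p = 0.0763).

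Other members act in DNA replication. Rrm2, the small subunit of ribonucleotide reductase, was at 11.82, 10.09 and 5.56 FPKM in Sham and 5.66, 12.04 and 13.21 in Con rats at 6 h, against 4.51, 2.44 and 2.32 in Sham and 3.38, 3.58 and 1.64 in Con rats at 24 h. The 2 times did not overlap (log2 -1.66 ± 0.279, adjusted p = 0.0763). The gene LOC100359539 showed nearly the same profile (13.2 ± 4.77 and 4.10 ± 1.34 FPKM, log2 -1.65, adjusted p = 0.0763). Mcm2 and Mcm5, parts of the replicative helicase, measured 7.62 ± 1.15 and 5.56 ± 1.31 FPKM (log2 -0.44, adjusted p = 0.0945) and 4.37 ± 1.40 and 2.08 ± 0.888 FPKM (log2 -1.01, adjusted p = 0.114). Pcna, the replication clamp that is also used in DNA repair, was at 42.4 ± 8.64 and 39.2 ± 2.30 FPKM (log2 -0.07, adjusted p = 0.785), and its sign turned without Sham-6h rat 1. Tyms (log2 -0.35, adjusted p = 0.344) and E2f1 (log2 -0.33, adjusted p = 0.337) did not pass either. Aurkb was the sole member above 0, at 8.40 ± 6.24 and 17.7 ± 12.1 FPKM (log2 1.13, adjusted p = 0.368), with values spread from 2.05 to 33.93 FPKM over the rats.

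**Figure D2:**
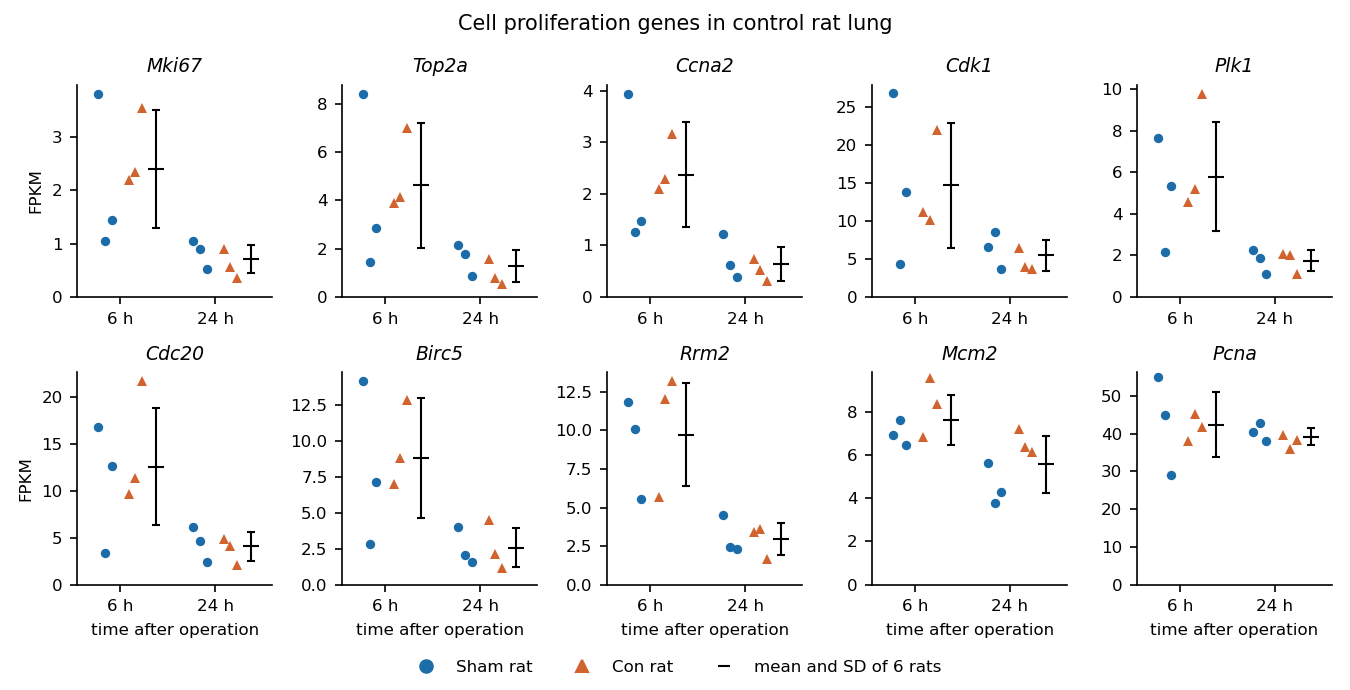
FPKM of 10 proliferation genes (vertical axes) at 6 h and 24 h in each of 12 rats, with Sham rats as circles, Con rats as triangles, and the mean with its SD over the 6 rats of a time. Rrm2 and Ccna2 do not overlap between the times, and Pcna hardly differs (42.4 and 39.2 FPKM).

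Some of the genes outside the lists with the smallest p in each direction are given here. Nox4 (ENSRNOG00000013925, chromosome 1), an NADPH oxidase that releases hydrogen peroxide, had the smallest p of all. Its level was 1.59, 2.19 and 1.95 FPKM in Sham and 1.61, 1.41 and 1.90 in Con rats at 6 h, and 4.18, 4.66 and 5.11 in Sham and 3.88, 3.15 and 2.26 in Con rats at 24 h. Every 24 h rat lay above every 6 h rat, with a log2 fold change of 1.14 ± 0.158 (adjusted p = 0.0752). Without Con-24h rat 3, its lowest 24 h value, Nox4 was called (log2 1.24, adjusted p = 0.0179 with edgeR). It was also called without Sham-6h rat 2 (adjusted p = 0.0277) and with 30 libraries in the model (adjusted p = 0.00416), both with edgeR, and with DESeq2 (adjusted p = 2.33e-07).

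Hibch, a mitochondrial enzyme of valine breakdown, measured 4.56 ± 0.453 and 6.66 ± 1.03 FPKM (log2 0.58, adjusted p = 0.0752), and Tmem80 6.01 ± 0.503 and 8.80 ± 0.709 FPKM (log2 0.59, adjusted p = 0.0763). Among the lower genes, Rangap1, the activator of the Ran GTPase in nuclear transport, was at 18.8 ± 2.75 and 12.4 ± 2.07 FPKM (log2 -0.58 ± 0.0837, adjusted p = 0.0752). Atp13a2, a lysosomal polyamine pump, measured 31.0 ± 4.66 and 20.7 ± 3.25 FPKM (log2 -0.55, adjusted p = 0.0763). Bco2, a carotenoid-cleaving oxygenase, was at 2.37 ± 0.286 and 1.25 ± 0.248 FPKM, with no overlap (log2 -0.89, adjusted p = 0.0763).

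A few larger differences were picked out after the values were seen. Inmt, an amine methyltransferase that is abundant in lung, was at 26.9 to 91.8 FPKM at 6 h and 92.3 to 217 FPKM at 24 h (log2 1.54, adjusted p = 0.0763). Wisp2, a secreted protein of fibroblasts, was at 7.65 ± 2.39 and 18.6 ± 5.92 FPKM (log2 1.31, adjusted p = 0.0763). Cpz, a secreted carboxypeptidase, was at 11.8 ± 5.30 and 3.08 ± 1.21 FPKM (log2 -1.91, adjusted p = 0.0763). None of the 3 overlapped between the times.

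Of 19 core clock genes, all tested, 6 were higher at 24 h with an unadjusted p under 0.05 (Nr1d1, Nr1d2, Per3, Npas2, Per2 and Ciart) and 3 were lower, among them Nfil3 and Cry1. None passed the adjusted threshold. The list's median log2 fold change was 0.25, with 0.13 in Sham and 0.27 in Con rats. With single libraries left out the higher genes numbered 5 to 9 and the lower genes 1 to 3.

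Promoters of 4 of these genes are printed because the known control elements of the clock can be seen in them. Capitals mark the E-box CACGTG, bound by the Clock and Arntl proteins, in Ciart and Nr1d1, the D-box TTATGTAA or TTACGTAA, bound by Dbp, Tef, Hlf and Nfil3, in Per2, and the element TAGGTCA, bound by the ROR and REV-ERB receptors, in Arntl. The sequences are RefSeq windows of GRCr8 as above. Ciart is at chr2:186112197-186112496, Nr1d1 (the window of the second of its start sites) at chr10:84229405-84229704 and Per2 at chr9:99496944-99497243, all on the minus strand, and Arntl at chr1:176766078-176766377 on the plus strand.
Ciart: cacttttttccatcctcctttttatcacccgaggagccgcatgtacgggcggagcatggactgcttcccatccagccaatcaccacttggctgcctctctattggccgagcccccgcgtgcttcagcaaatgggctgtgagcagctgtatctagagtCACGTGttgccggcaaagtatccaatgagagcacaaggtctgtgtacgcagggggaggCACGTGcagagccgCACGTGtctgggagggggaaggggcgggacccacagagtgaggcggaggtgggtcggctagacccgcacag
Nr1d1: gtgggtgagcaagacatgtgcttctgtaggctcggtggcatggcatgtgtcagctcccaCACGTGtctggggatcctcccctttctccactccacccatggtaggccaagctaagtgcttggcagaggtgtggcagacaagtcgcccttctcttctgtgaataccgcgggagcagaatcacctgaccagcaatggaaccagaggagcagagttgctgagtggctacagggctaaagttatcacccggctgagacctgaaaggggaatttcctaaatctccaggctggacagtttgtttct
Per2: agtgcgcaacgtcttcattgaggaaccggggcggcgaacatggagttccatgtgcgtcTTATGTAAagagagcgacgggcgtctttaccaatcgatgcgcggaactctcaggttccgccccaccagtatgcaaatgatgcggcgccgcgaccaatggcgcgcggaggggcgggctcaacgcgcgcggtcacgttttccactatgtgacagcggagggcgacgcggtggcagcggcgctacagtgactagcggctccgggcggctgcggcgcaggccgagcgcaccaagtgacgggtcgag
Arntl: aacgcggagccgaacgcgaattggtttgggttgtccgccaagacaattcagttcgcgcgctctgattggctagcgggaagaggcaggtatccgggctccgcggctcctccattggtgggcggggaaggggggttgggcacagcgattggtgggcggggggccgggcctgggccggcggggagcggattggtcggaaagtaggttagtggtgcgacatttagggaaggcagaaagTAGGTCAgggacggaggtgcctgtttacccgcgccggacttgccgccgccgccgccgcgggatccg

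Windows were found for 16 of the 19 genes, 18 in all. The E-box was in 5 of the 18 (27.8%, Nr1d1, Tef, Bhlhe40, Bhlhe41 and Ciart), against 6.42% of all 33469 windows. The D-box was in 1 (5.56%, against 1.01%) and the ROR and REV-ERB element in 1 (5.56%, against 2.63%). The cAMP response element TGACGTCA was in 0, against 1.83% of all windows, and the glucocorticoid response element in 0, against 0.0388%.

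Nr1d2, which encodes the repressor REV-ERB beta, was the clock gene with the smallest p. It was at 6.65, 7.25 and 8.71 FPKM in Sham and 3.96, 4.51 and 2.97 in Con rats at 6 h, and at 20.31, 11.54 and 9.35 in Sham and 11.15, 7.62 and 8.05 in Con rats at 24 h. Within each operation type all 24 h rats were above all 6 h rats (log2 1.08 ± 0.189, adjusted p = 0.0763). It passed the adjusted threshold with 30 libraries in the model (adjusted p = 0.0108) and with DESeq2 (adjusted p = 4.07e-05).

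Its paralog Nr1d1, encoding REV-ERB alpha, had the largest difference but also the largest scatter. The 6 h values were 4.27, 7.80 and 21.95 FPKM in Sham and 2.58, 4.75 and 2.76 in Con rats, and the 24 h values 84.27, 9.06 and 10.24 in Sham and 67.69, 20.16 and 19.98 in Con rats. Rat 1 of both 24 h groups was several times above the other rats (log2 2.51 ± 0.698, adjusted p = 0.112). Ciart, a repressor of Clock and Arntl, had the same 2 rats on top, with 3.03 and 1.89 FPKM at 24 h against 0.30 to 1.31 at 6 h (log2 1.21, adjusted p = 0.236). Dbp, an output transcription factor of the clock, spread from 15.4 to 123 FPKM at 24 h, with means of 34.2 ± 21.6 and 57.2 ± 42.5 FPKM at 6 h and 24 h (log2 0.80, adjusted p = 0.425). Sham-6h rat 3 stood apart from the other 6 h rats for Nr1d1, Dbp (78.2 FPKM, the others 24.2 to 27.2) and Nfil3 (5.76 FPKM, the others 11.5 to 15.9).

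The period genes were higher by less. Per3 was at 2.65 ± 0.727 and 3.79 ± 0.947 FPKM (log2 0.58, adjusted p = 0.0905) and Per2 at 4.98 ± 0.747 and 6.08 ± 1.26 FPKM (log2 0.32, adjusted p = 0.197), while Per1, which glucocorticoids also induce, had a log2 fold change of 0.25 (adjusted p = 0.384). Npas2, a paralog of Clock, was at 0.905 ± 0.302 and 1.44 ± 0.448 FPKM (log2 0.74, adjusted p = 0.171). On the lower side, Nfil3, a repressor at D-boxes, was at 12.1 ± 3.58 and 6.37 ± 2.04 FPKM (log2 -0.87, adjusted p = 0.124). Cry1, the repressor partner of the Per proteins, was at 10.3 ± 1.74 and 7.52 ± 1.63 FPKM (log2 -0.41, adjusted p = 0.216).

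The activators themselves did not pass. Arntl was at 5.44 ± 2.04 and 3.73 ± 2.37 FPKM (log2 -0.45, adjusted p = 0.607) and Clock had a log2 value of 0.14 (adjusted p = 0.752). Tef (0.28, adjusted p = 0.4), Hlf (0.20), Rora (0.28), Bhlhe40 (0.03), Bhlhe41 (-0.25) and Cry2 (-0.07) did not pass either.

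**Figure D3:**
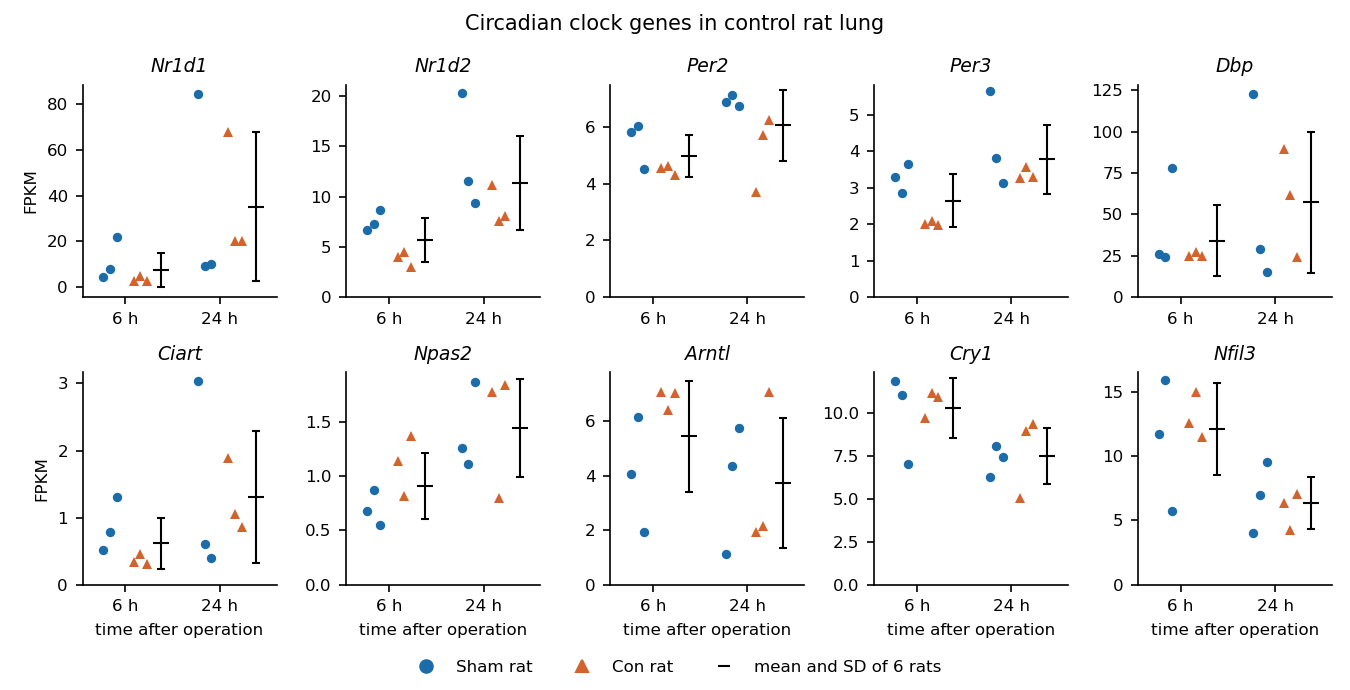
FPKM of 10 core clock genes (vertical axes) at 6 h and 24 h in each of 12 rats, with Sham rats as circles, Con rats as triangles, and the mean with its SD over the 6 rats of a time. Nr1d1 is highest in 2 rats at 24 h, with 84.27 and 67.69 FPKM, and Nr1d2 is higher at 24 h in both operation types.

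Cholesterol genes were higher at 24 h in 8 of 21 tested, and none was lower. These genes respond together to the sterol-sensing factor SREBP2. Sqle, the squalene epoxidase that commits the pathway to sterols, was at 4.24 to 5.48 FPKM at 6 h and 5.80 to 9.43 FPKM at 24 h, without overlap (log2 0.71 ± 0.12, adjusted p = 0.0763). Upstream of it, Hmgcs1 was at 5.89 ± 0.802 and 8.43 ± 1.48 FPKM (log2 0.55, adjusted p = 0.0763) and Idi1 at 2.68 ± 0.661 and 4.33 ± 1.33 FPKM (log2 0.72, adjusted p = 0.0842). Both thus had differences close to that of Sqle. Downstream, Msmo1 was at 13.2 ± 0.856 and 16.7 ± 0.830 FPKM (log2 0.38, adjusted p = 0.0763) and Hsd17b7 was below 1 FPKM (log2 0.82, adjusted p = 0.0763), both without overlap. Sc5d, an enzyme late in the pathway, was higher by less (log2 0.23, adjusted p = 0.27). The most abundant member, Fdps, did not follow, with 38.1 ± 3.60 and 36 ± 4.0 FPKM, nor did Srebf2 itself, with 31.7 ± 2.04 and 34.0 ± 4.36 FPKM. The median of the list was 0.13.

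Glycolytic genes and hypoxia targets were lower at 24 h in 8 of 19 tested, and none was higher. Among the abundant glycolytic enzymes, Gapdh, Aldoa and Eno1 were lower together. Gapdh was at 381 to 542 FPKM at 6 h and 232 to 368 FPKM at 24 h, without overlap (log2 -0.52, adjusted p = 0.0763). Aldoa was at 530 ± 61.0 and 391 ± 62.2 FPKM (log2 -0.41, adjusted p = 0.0763) and Eno1 at 197 ± 26.2 and 139 ± 20.6 FPKM (log2 -0.47, adjusted p = 0.0763), the latter without overlap. Pfkl (log2 -0.36, adjusted p = 0.103), Hk2 (log2 -0.59, adjusted p = 0.248) and Pgk1 (log2 -0.29, adjusted p = 0.248) are enzymes of the same pathway. Hmox1, which degrades heme and responds to oxidative stress, was at 38 ± 6.08 and 23.7 ± 3.28 FPKM without overlap (log2 -0.65, adjusted p = 0.0763), and Ndrg1, a hypoxia-induced gene, had a log2 value of -0.34 (adjusted p = 0.16). The median of the list was -0.24, with 11 members below 0 and 8 above.

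Other stress and metabolic programmes were nearer the background. NRF2 targets were lower in 4 of 16, among them the pentose phosphate enzymes Taldo1 (197 ± 22.0 and 155 ± 12.0 FPKM, log2 -0.30, adjusted p = 0.104) and Tkt (187 ± 27.3 and 150 ± 15.1 FPKM, log2 -0.28, adjusted p = 0.17). Hmox1, counted above, and Osgin1 were the other two. Unfolded protein and amino acid stress genes were lower in 4 of 23 (Trib3, Asns, Sesn2 and Sdf2l1), and the abundant members Calr (485 ± 64.9 and 401 ± 67.2 FPKM) and Atf4 (214 ± 34.7 and 204 ± 38 FPKM) did not pass. Heat shock chaperones were lower in 5 of 18 and higher in 1, but with single libraries left out the lower genes numbered 0 to 7. Hsp90ab1, the constitutive cytosolic chaperone, was at 687 ± 138 and 517 ± 108 FPKM (log2 -0.37, adjusted p = 0.24).

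Glucocorticoid targets, which stress hormones induce, held 1 higher and 1 lower gene of 17, with a median of -0.07. Tsc22d3 (GILZ), the best known of them, was at 300 ± 52.3 FPKM at 6 h and 277 ± 108 FPKM at 24 h. Immediate early genes, which answer handling and injury within minutes, held none of 18 in either direction, with Jund at 203 ± 26.2 and 190 ± 49.4 FPKM. Fasting and fatty acid oxidation genes held 2 higher and 2 lower of 20, including Acadm, a dehydrogenase of medium-chain fatty acids (62.8 ± 5.07 and 74.8 ± 12.1 FPKM, log2 0.29, adjusted p = 0.212), while fatty acid synthesis held 1 higher and 2 lower of 15. Ribosomal proteins held 6 higher and 1 lower of 44 and oxidative phosphorylation subunits 3 and 3 of 45, with medians of -0.01 and -0.06.

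Some alveolar epithelial markers were higher at 24 h, against a background of 8.65% of all genes. In alveolar type 1 cells, the thin cells of gas exchange, 3 of 8 markers were higher and none lower. Cav1, the caveolae protein that endothelium also makes, was at 325 ± 45.5 and 502 ± 135 FPKM (log2 0.65, adjusted p = 0.0939), Hopx at 812 ± 132 and 989 ± 166 FPKM (log2 0.32, adjusted p = 0.187) and Clic5 had a log2 value of 0.40 (adjusted p = 0.194), but Ager, the most abundant, was at 1446 ± 310 and 1386 ± 332 FPKM. In alveolar type 2 cells, which make surfactant, 4 of 10 were higher and none lower, with a median of 0.04 in Sham and 0.39 in Con rats. Lamp3, a protein of lamellar bodies, was at 60.7 ± 11.1 and 94.9 ± 26.7 FPKM (log2 0.66, adjusted p = 0.0945), with Etv5 (log2 0.36, adjusted p = 0.157), Sftpa1 (log2 0.43, adjusted p = 0.234) and Slc34a2 (log2 0.23, adjusted p = 0.277) alongside. Sftpc was at 24554 ± 4828 and 24636 ± 4251 FPKM. With single libraries left out the higher type 2 markers numbered 2 to 6.

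Club and secretory markers held 1 lower gene of 10 and basal markers none of 7. Ciliated cell markers, the genes of the beating cilia of the airway, were higher at 24 h in 6 of 11, none lower, with a pooled median of 0.38. This median was 0.79 in Sham rats and -0.02 in Con rats. For 10 of the 11 markers the log2 fold change was lower in Con than in Sham rats with an unadjusted p under 0.05. Of all genes tested, 9.4% passed in either direction. With single libraries left out the pooled count ranged from 2 to 8.

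The values show where this difference lies. Dynlrb2, a dynein light chain, was at 45.5, 58.8 and 60.4 FPKM in Sham rats at 6 h and 98.8, 108 and 122 at 24 h. In Con rats it was at 90.9, 119 and 77.2 FPKM at 6 h and 113, 74.2 and 97.6 at 24 h. The 3 Sham rats at 6 h were below the other 9 rats, whose groups overlapped (interaction log2 -0.96, adjusted p = 0.42). Ccdc39, needed to assemble the dynein arms, had the same order, with means of 0.70 and 2.05 FPKM in Sham and 1.53 and 1.47 FPKM in Con rats (interaction log2 -1.56, adjusted p = 0.339). Tppp3, the most abundant marker, did not share it (log2 0.28 in both, interaction adjusted p = 0.995).

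Across all genes, the time difference did not depend on the operation at an adjusted p under 0.05 in any gene (smallest adjusted p 0.218 with edgeR). At an unadjusted p under 0.05 the log2 fold change was higher in Con than in Sham rats for 559 genes and lower for 879. Together these were 9.4% of the genes tested. Of the 559, 466 were below 0 in Sham and above 0 in Con rats. Of the 879, 730 were above 0 in Sham and below 0 in Con rats. Opposite signs are favoured by picking genes on this difference, because the median log2 fold change of all genes was 0.003 in Sham and -0.001 in Con rats. These sign counts are therefore no separate result. DESeq2, over all 15293 genes, called 5 higher and 52 lower in Con rats.

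Time in the Sham rats was tested in a model of all 12 libraries, which shares its estimate of the spread with the Con rats. By this test 2 genes rose past both thresholds and none fell. Lrrc34, a leucine-rich repeat protein, rose from 2.67 ± 0.859 to 8.63 ± 0.178 FPKM (SD, n = 3 each, log2 1.72, adjusted p = 0.035 with edgeR). Lrrc51 rose from 10.5 ± 0.848 to 22.3 ± 2.73 FPKM (log2 1.10, adjusted p = 0.0486 with edgeR). In Con rats Lrrc34 was at 4.99 ± 1.20 and 4.36 ± 0.124 FPKM and Lrrc51 at 21.1 ± 3.44 and 15 ± 1.65 FPKM, with an interaction of -1.85 (log2, adjusted p = 0.232) and -1.53 (adjusted p = 0.218). For 10 of 11 ciliated cell markers the log2 fold change was also lower in Con than in Sham rats at an unadjusted p under 0.05. Their part in these results was not tested. Prom1, a protein of membrane protrusions (log2 0.83, adjusted p = 0.0486), and Ass1, the arginine-making argininosuccinate synthase (log2 -0.96, adjusted p = 0.035), passed the p but not the 2-fold limit in Sham rats. DESeq2 called 179 genes for the same difference. With single libraries left out, 3 genes were called without Con-24h rat 3, 1 without Sham-6h rat 2 and 0 without any of the other 10. For time in the Con rats, from the same model, no gene was called with edgeR. At an unadjusted p under 0.05, 783 were higher and 743 lower (127 and 335 with the 2-fold limit, where Sham rats had 353 and 120). DESeq2 called 15 higher and 89 lower.

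Other genes had small interaction p values, none past the adjusted threshold with edgeR, whose adjusted p is printed for each. Dlk1 (log2 3.01) and Tesc (log2 1.66) were among the 5 genes that DESeq2 called higher in Con rats, both at an adjusted p of 1.31e-05. Clca1, a secreted regulator of mucus, was at 1.15 ± 0.800 and 6.98 ± 2.93 FPKM in Sham rats but 5.95 ± 1.6 and 0.927 ± 0.663 FPKM in Con rats (interaction log2 -5.25, adjusted p = 0.232). Dlk1, a membrane ligand of fetal and repairing tissue, was at 143 ± 49.1 and 74.8 ± 31.7 FPKM in Sham and 83.9 ± 10.4 and 346 ± 140 FPKM in Con rats (interaction log2 3.00, adjusted p = 0.258). Tesc, a calcium-binding protein, was at 28.7 ± 2.20 and 21.6 ± 5.14 FPKM in Sham and 24.7 ± 5.00 and 56.7 ± 7.37 FPKM in Con rats (interaction log2 1.65, adjusted p = 0.232). Cxcr4, the chemokine receptor, was at 39.0 ± 2.16 and 36.2 ± 4.75 FPKM in Sham and 36.2 ± 2.97 and 56.2 ± 3.19 FPKM in Con rats (interaction log2 0.79, adjusted p = 0.258).

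**Figure D4:**
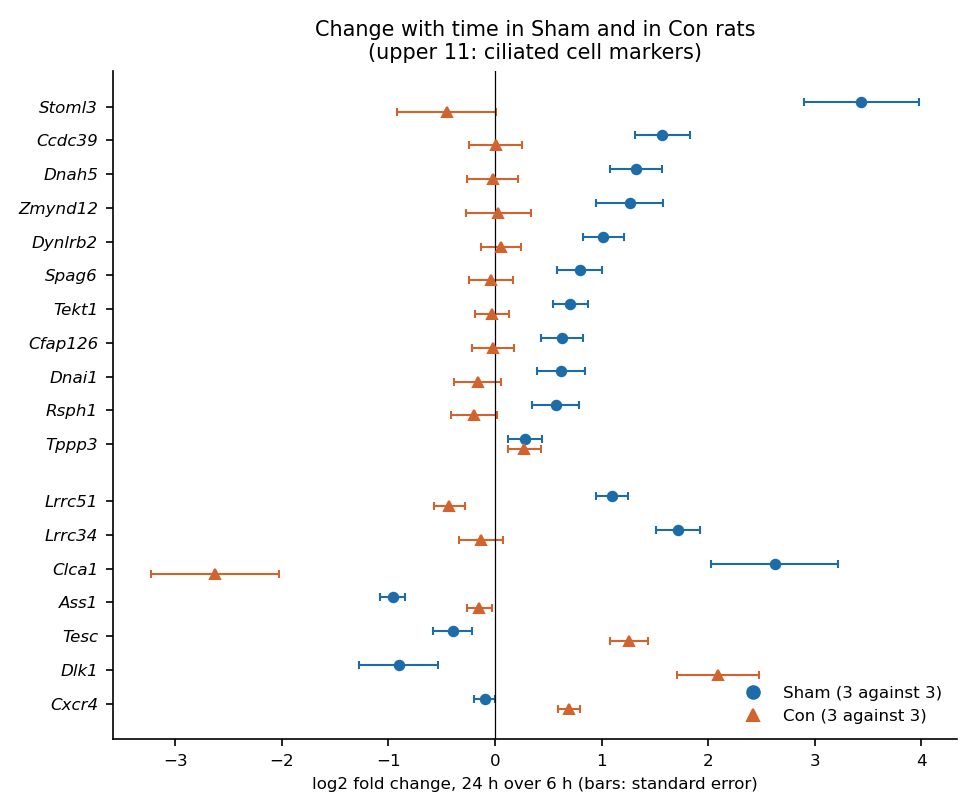
Log2 fold change (24 h over 6 h, horizontal axis) with its SE in Sham rats and in Con rats. The upper panel holds 11 ciliated cell markers. The lower panel holds 7 of the genes with a small p for time by operation or an adjusted p under 0.05 in Sham rats. Clca1 has 2.62 in Sham rats and -2.63 in Con rats.

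Blood cell markers varied from rat to rat by more than they differed between the times. Neutrophil markers were lower in 3 of 12 (Fcnb, Mpo and Ncf1) with a median of -1.0 pooled, 0.00 in Sham and -1.80 in Con rats, and their summed level ran from 436 to 6105 FPKM at 6 h and from 202 to 9517 FPKM at 24 h. The count of lower neutrophil markers ranged from 1 to 8 with single libraries left out, and their median from -1.71 to -0.66. Without the operation covariate this median was -0.44. S100a9, a subunit of the neutrophil protein calprotectin, went from 160 to 2956 FPKM among the 6 h rats and from 46.4 to 4443 FPKM among the 24 h rats. Red blood cell markers had a median of -1.0 but none of 9 passed, with Hba1 at 577 to 5191 and 364 to 2456 FPKM. Between 0 and 7 of them were lower with single libraries left out, the 7 without Sham-24h rat 3, and the median lay between -1.54 and -0.53. Platelet markers were lower in 1 of 8, with a median of -0.57, and in 0 to 5 with single libraries left out.

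T cell markers (0 of 12), B and plasma cell markers (0 of 9) and natural killer markers (0 of 9) held no gene that passed. Macrophage and monocyte markers held 1 higher and 1 lower gene of 12, the lower one being Cd68, a lysosomal protein of macrophages, at 128 ± 31.3 and 79.9 ± 8.32 FPKM (log2 -0.64, adjusted p = 0.0928). MHC class II held 1 lower gene of 8. Mast cell markers held 2 lower and 1 higher gene of 9, the latter the receptor Kit (log2 0.45, adjusted p = 0.254).

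Acute phase and antimicrobial genes were lower in 5 of 16, none higher. Slpi, an antiprotease of airway secretions, was at 115 ± 107 and 33.8 ± 27.1 FPKM (log2 -1.88, adjusted p = 0.123), Hp (haptoglobin) at 116 ± 126 and 26.7 ± 14.2 FPKM (log2 -2.01, adjusted p = 0.176) and Lbp, the carrier of endotoxin, had a log2 value of -0.59 (adjusted p = 0.193). Between 3 and 7 of them were lower with single libraries left out. The list's median was -0.33 pooled, -0.09 in Sham and -0.38 in Con rats. It shares S100a8, S100a9 and Retnlg with the neutrophil list, and the sums of both lists were highest in Sham-24h rat 3 (10029 and 9517 FPKM), next in Sham-6h rat 2 (6812 and 6105 FPKM) and lowest in Con-24h rat 2 (731 and 202 FPKM). The part of neutrophils in the differences of this list was not tested. Cytokines and chemokines, by contrast, held 1 higher and 1 lower gene of 23, with Ccl5 at 216 ± 130 and 184 ± 77.0 FPKM and Cxcl3 at 135 ± 64.6 and 134 ± 47.2 FPKM.

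Interferon response genes held 2 higher and 1 lower of 20, although their median was 0.87. This median was -0.01 in Sham and 1.72 in Con rats, and it rested on Con-24h rat 1. In that rat Isg15 was at 237 FPKM, against 2.62 to 22.9 FPKM in the others, Mx1 at 136 and Irf7 at 345 FPKM. The list's summed level was 2497 FPKM there and 462 to 926 FPKM in the others. Without that rat the median was -0.18, and without each of the other rats it lay between 0.63 and 1.26.

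Of 17 collagen genes, 5 were lower and none higher, with a median of -0.36, -0.47 in Sham and -0.19 in Con rats. Col1a1, the chief collagen of scars and tendon, was at 143 ± 53.0 and 82.1 ± 18.9 FPKM (log2 -0.75, adjusted p = 0.157) and Col3a1, its partner in soft tissue, at 397 ± 129 and 220 ± 93.8 FPKM (log2 -0.82, adjusted p = 0.209). The basement membrane collagen Col4a1 was at 214 ± 47.6 and 183 ± 35.5 FPKM. With single libraries left out the lower collagens numbered 3 to 8. Fibroblast and smooth muscle markers held 2 higher and 1 lower gene of 12, and endothelial markers 2 higher and 1 lower of 11, with Plvap at 832 ± 212 and 761 ± 232 FPKM. Markers of tissues next to the lung held 1 lower gene of 7 for adipocytes and none for heart muscle (of 9) or skeletal muscle (of 6). Heart muscle markers summed to 14.3 to 252 FPKM at 6 h and 11.8 to 183 FPKM at 24 h.

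Long non-coding RNAs leaned higher at 24 h. Of 295 tested, 47 were higher and 10 lower, with a median of 0.21, where the 14715 protein-coding genes had 1255 higher and 1319 lower with a median of 0.01. AABR07012047.1 (chromosome 2) was at 0.753 ± 0.164 and 1.51 ± 0.613 FPKM (log2 0.95, adjusted p = 0.0763). AABR07011996.1 (log2 0.34, adjusted p = 0.104) and Rn60_13_0828.1 (log2 0.30, adjusted p = 0.11) were higher by less. AABR07054490.1 (chromosome 3) was lower without overlap, at 5.99 to 8.42 FPKM at 6 h and 4.45 to 5.72 FPKM at 24 h (log2 -0.44, adjusted p = 0.104). Among 34 short structural RNAs, which the selection of polyadenylated RNA should remove, 2 were higher and 9 lower, with a median of -0.35, where 8.82% of all genes were lower. The libraries with most of this RNA were both at 6 h, Con-6h rat 1 at 989 and Sham-6h rat 3 at 189 CPM, and their part in this count was not tested.

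The same interval in the 18 taurocholate rats shares no library with the control comparison. In the authors' mapping summary, every taurocholate library had a smaller share of uniquely mapped reads than every Sham or Con library. The part of this in the comparisons with controls below was not tested. There, averaged over SAP, DEX and Emo, 485 genes were called higher at 24 h (3.08% of 15757 tested) and 587 lower (3.73%), and 3917 (24.9%) and 3540 (22.5%) had an adjusted p under 0.05 without the fold limit. Of the genes higher in controls with an unadjusted p under 0.05, 1319 were tested in these rats, 1228 had the same sign (93.1%) and 908 had an adjusted p under 0.05 in the same direction (68.8%), against 11 in the other. Of the genes lower in controls, 1344 were tested, 1266 had the same sign (94.2%) and 951 an adjusted p under 0.05 in the same direction (70.8%), against 4 in the other. Over all 15233 genes tested in both, 74.4% had the same sign. The overlap with genes called in the taurocholate rats was 148 higher genes, which is 11.2% of the control genes and 30.5% of the 485, and 169 lower genes, which is 12.6% of the control genes and 28.8% of the 587.

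The lists above compared as follows in taurocholate rats. Proliferation genes had a median of -1.08, and 24 had an adjusted p under 0.05, all lower, of which 16 were called. Cholesterol genes had 13 higher and 2 lower of 21 at an adjusted p under 0.05 (median 0.46). Glycolysis and hypoxia genes had 3 higher and 10 lower of 19, and collagens 1 higher and 13 lower of 17 (median -0.81). Ciliated cell markers had a median of -0.09 and alveolar type 2 markers of 0.05, against 0.38 and 0.23 in controls. Heat shock chaperones had a median of 0.49, against -0.21 in controls, with 5 higher and 1 lower of 18. Of all genes tested in taurocholate rats, 24.9% were higher and 22.5% lower at an adjusted p under 0.05. Nox4 (log2 1.62) and Cpz (log2 -3.79) were further from 0 there than in controls, while Bco2 was at -0.25 (adjusted p = 0.36).

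The clock genes did not follow as a group. In taurocholate rats the log2 fold change of Nr1d1 was 0.94, of Nr1d2 0.59 and of Npas2 1.37, with the sign seen in controls, but that of Per3 was -0.42, of Per2 -0.23, of Dbp -0.76 and of Ciart -0.73. Nfil3 (-0.55) and Cry1 (-0.77) were again below 0. Arntl was at 0.91 and Clock at 0.92 there, against -0.45 and 0.14 in controls. Red blood cell markers had 9 of 9 lower at an adjusted p under 0.05, with a median of -2.49, and T cell markers 11 of 12.

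**Figure D5:**
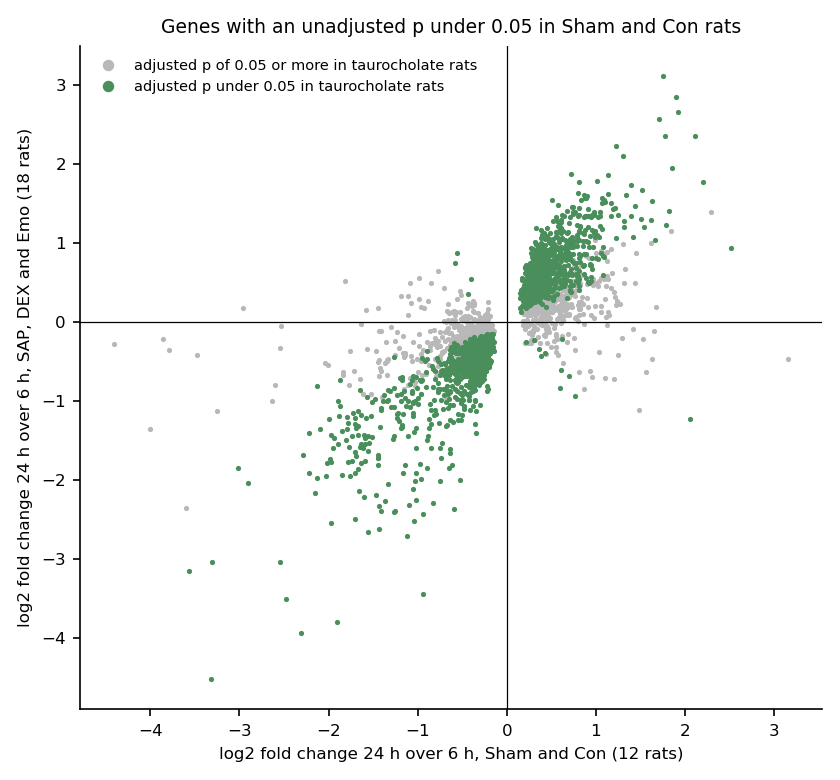
Log2 fold change (24 h over 6 h) in 12 control rats (horizontal axis) against that in 18 taurocholate rats (vertical axis), 1 point per gene with an unadjusted p under 0.05 in controls, green where the adjusted p in taurocholate rats is under 0.05. Most points lie in the quadrants of equal sign, 1228 of 1319 higher and 1266 of 1344 lower genes.

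Against untreated SAP rats, which were compared with the same control libraries, the time difference itself differed past both thresholds in 3 of 15934 genes, 1 higher in SAP and 2 lower. Adh6, an alcohol dehydrogenase, was at 13.2 ± 3.47 and 14.4 ± 4.97 FPKM in controls but at 16.42, 23.67 and 16.87 FPKM in SAP rats at 6 h and 0.99, 2.14 and 2.23 FPKM at 24 h (difference of log2 fold changes -3.49, adjusted p = 0.0145 with edgeR). The lncRNA AABR07054490.1, lower at 24 h in controls, was at 6.12 ± 0.114 and 10.5 ± 2.99 FPKM in SAP rats (difference 1.34, adjusted p = 0.0453). The third gene, B3galt5, was below 1 FPKM in both (difference -2.06, adjusted p = 0.0453). The lower share of uniquely mapped reads in SAP libraries applies here too, and its part was not tested.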

How the data were processed

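The authors prepared directional libraries of polyadenylated RNA from perfused lung, clipped reads with the FASTX-Toolkit and aligned them with TopHat2 (also named in the submitters' processing notes) to the rat genome they give as rat_ensembl_v6, discarding reads with several locations. The program that counted reads per gene is not given in the sources used here. The authors deposited raw read counts per gene and FPKM values, rounded to 2 decimals, for all 30 libraries. Where a gene shares sequence with a near-identical copy, discarding such reads lowers its values.

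Counts were tested with edgeR 4.0.16 in R 4.3.3 (TMM scaling, filterByExpr with a minimum count of 10 and a minimum total of 15, quasi-likelihood test with the operation type as a covariate). A gene was called at a Benjamini-Hochberg adjusted p under 0.05 over all genes tested and at least a 2-fold difference. Time by operation and time within each operation came from a model of the 12 libraries whose terms were the 4 groups. Means and SDs are of FPKM, log2 fold changes of counts. The 18 taurocholate libraries were fitted alone, and all 30 together for the comparison with SAP. Each p measures the spread between rats. The labels give no batch. DESeq2 1.42.0 and limma 3.58.1 (on log2(FPKM + 1) and log2(FPKM + 0.1)) were alternatives, and the scripts were tested on simulated data. Python 3.11.15 was used for the rest.

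The members, lists, motifs and the rule for named genes were chosen with earlier results of these data known. That rule names the 5 genes with the smallest p in each direction, the 3 with the smallest p in each direction for time by operation, called genes of the comparison with SAP, all clock genes tested, the 2 most abundant members of each other list, and the 4 lncRNAs with the smallest p. Any further gene was chosen after its values were seen. Some genes that the rule names are not reported here.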

Additional observations from a re-analysis of the deposited data

Results flagged for a closer look

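In 164 groups of 6 rats, 12 held a rat far from the other 5, where chance alone gives about 1 in 20. Sham-6h rat 1 had 28609000 reads against a median of 24976000 among the 6 h rats. Con-6h rat 1 had 989 CPM of short structural RNA, against a median of 44.3.

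Clock genes accounted for 5 of these values, on the log2(FPKM + 1) scale or, for the list, log2 of its summed FPKM + 1. Sham-6h rat 3 was high for Dbp (6.31 against a median of 4.72), low for Nfil3 (2.76 against 3.71) and high for the summed list (7.98 against 7.46). At 24 h, Con rat 1 was low for Per2 (2.24 against 2.91) and Sham rat 1 high for Per3 (2.73 against 2.15).

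Other lists, as log2 of the summed FPKM + 1, had single rats that stood apart. Con-24h rat 1 was high for interferon response genes (11.3 against 9.07) and immediate early genes (9.78 against 8.87). Con-6h rat 2 was high for B and plasma cell markers (8.14 against 6.40), Sham-6h rat 2 for natural killer markers (7.98 against 6.15), and Sham-24h rat 3 was low for mast cell markers (5.30 against 6.09).

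In 3 genes the time difference itself differed between SAP rats and controls by a test of that difference with edgeR, Adh6 by -3.49 (log2, adjusted p = 0.0145), B3galt5 by -2.06 (adjusted p = 0.0453) and AABR07054490.1 by 1.34 (adjusted p = 0.0453). The control libraries of this test are those of the pooled time comparison.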

How the results depend on the processing

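In the pooled time comparison, the 0 genes called by edgeR became 127 with 30 libraries in the model, 161 with DESeq2, 322 with an unadjusted p and the same fold limit, and 0 to 70 with single libraries left out. These were 70 without Sham-6h rat 2, 1 without Con-24h rat 3 and 0 without each of the other rats. Leaving out both libraries high in short structural RNA, an alternative chosen after seeing the data, gave 4. Time by operation went from 0 to 57 with DESeq2 and to 446 with an unadjusted p. Time in Sham rats went from 2 genes to 41 with 30 libraries, 1 with RLE scaling, with no filter on low counts and with limma on log2(FPKM + 1), 179 with DESeq2, 473 with an unadjusted p, 4 with no fold limit and 0 to 3 with single libraries left out. Time in Con rats went from 0 to 1 with 30 libraries, 104 with DESeq2 and 462 with an unadjusted p. In taurocholate rats the 1072 genes became 705 with a filter of at least 1 CPM in 6 libraries and 7457 with no fold limit. The difference between SAP and controls went from 3 genes to 92 with the mean of SAP, DEX and Emo, 5 with RLE scaling and with no filter, 6 with the stricter filter, 159 with DESeq2 and 807 with an unadjusted p. The first principal component separated the times by 4.89 to 34.4 units with single libraries left out. The cause of these shifts was not tested.

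For 88 genes whose pooled values were followed under the alternatives, 1954 of 2023 values under alternatives kept their direction and side of the threshold, 61 newly passed it and 8 turned, all in genes close to 0. Pcna was at 0.025 without Sham-6h rat 1 (range with single libraries left out -0.17 to 0.025), Clock at -0.012 without Sham-6h rat 3 (-0.012 to 0.25). Bhlhe40 was at -0.0017 with a replicate block, -0.033 and -0.038 with limma, and -0.10 to 0.094 with single libraries left out.

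The replicate numbers did not pair the rats. Over 18 pairs of same-numbered rats the correlation of deviations ran from -0.38 to 0.37, with 3 above 0.1, and for 0 of 12 rats was the mean correlation with the rats of the other groups highest for their own number. With the replicate number as a block, 0 genes were called for time pooled, for time by operation and in Con rats, 1 in Sham rats, 1069 in taurocholate rats and 9 for SAP against controls.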

Other observations

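A few genes split the control rats into well separated levels, and were picked out after their values were seen. Rps6, a ribosomal protein, was at 1.98 to 4.17 FPKM in 6 rats and at 94.1 to 146 FPKM in the other 6, namely Sham-6h rat 3, all 3 Sham rats at 24 h and Con-24h rats 2 and 3. Cd300lg, a receptor of capillary endothelium, was at 17.1 and 6.08 FPKM in Sham-6h rats 1 and 2 and 5.25 FPKM in Con-6h rat 2, and at 0.05 to 0.58 FPKM in the other 9 (log2 -4.00, unadjusted p = 0.000855, adjusted p = 0.0842 with edgeR).

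Markers of heart muscle varied between lungs, with Myl7, an atrial myosin light chain, from 0.07 FPKM in Sham-24h rat 2 to 52.8 FPKM in Con-6h rat 3. Rpl39l, a ribosomal protein paralog, was at 3.06 and 3.03 FPKM in rat 1 of both 24 h groups and at 0.14 to 0.82 FPKM in the other 10. These same rats had the highest Nr1d1 and Ciart.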
